A study of Homo sapiens with 6 samples.

Results

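The genes described here are 41 genes of oxidative stress defence: the regulators of the transcription factor NRF2 and the enzymes of glutathione, thioredoxin, peroxide and conjugation chemistry. They were taken by name from the 58219 gene identifiers of the study, and all 41 were found. RNA was sequenced in SNU-387, an established cell line from a pleomorphic hepatocellular carcinoma graded IV/V. The comparison was between cells stably expressing a short hairpin RNA against YES1 (shYES1, n = 3) and cells stably expressing a non-target hairpin (shNT, n = 3). YES1 is a tyrosine kinase of the SRC family, and the design asks how the transcriptome differs when its RNA is lowered. The labels do not say whether libraries of a group came from separate cultures, so p-values measure the spread between these libraries, which may be technical. The labels leave the number of hairpins against YES1 unstated, so an effect of 1 hairpin and an effect of low YES1 cannot be told apart.

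NRF2, encoded by NFE2L2, is held low by KEAP1, an adaptor that delivers it to the CUL3 ubiquitin ligase. When electrophiles or peroxides modify KEAP1, NRF2 accumulates, pairs with small MAF proteins and binds antioxidant response elements, where BACH1 acts as a repressor. Textbook NRF2 targets make and recycle glutathione, keep thioredoxin reduced, reduce quinones, open the heme ring and conjugate and export toxic compounds. In liver these enzymes form part of the detoxification of drugs and food toxins, and the pathway is often active in hepatocellular carcinoma.

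Because the antioxidant response element joins many of these genes, promoters were searched for its core, TGACNNNGC, where N is any base, on both strands. RefSeq windows (GRCh38.p14) of 250 bases before to 50 bases after an annotated start were at hand for 32 of the 41 genes. A match lay in a window of 8 of these 32 (25.0%), among them GSTP1, which was too low to test. Of the tested members with a window 7 held a match and 24 did not, and 19.6% of all tested genes with a window held one. By window, a match lay in 9 of the 52 windows of these genes and in 13.3% of all 35116 windows. A match describes letters, not binding. The stretches below show the core in 7 of these genes, of which GCLM and TXNRD1 were lower in shYES1, EPHX1, GSTO1, KEAP1 and CBR1 higher, and GSTP1 too low to test. Each has the match in capitals and up to 15 bases on either side, and reads 5′ to 3′ on the strand that holds the core. TXNRD1 is shown at 2 of its annotated starts. MGST1 also had a match, and further matches in GSTO1, TXNRD1 and KEAP1 are not printed.
GCLM, chr1:93909441-93909479, plus strand: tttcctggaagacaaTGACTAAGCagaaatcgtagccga
EPHX1, chr1:225825261-225825299, plus strand: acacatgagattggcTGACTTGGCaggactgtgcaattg
GSTO1, chr10:104254651-104254689, plus strand: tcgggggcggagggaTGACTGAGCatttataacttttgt
GSTP1, chr11:67583731-67583769, plus strand: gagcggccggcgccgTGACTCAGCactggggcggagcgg
TXNRD1, chr12:104215665-104215703, plus strand: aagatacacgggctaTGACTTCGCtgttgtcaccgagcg
TXNRD1, chr12:104286915-104286953, minus strand: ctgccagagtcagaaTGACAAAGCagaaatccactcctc
KEAP1, chr19:10502779-10502817, plus strand: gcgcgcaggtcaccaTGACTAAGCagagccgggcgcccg
CBR1, chr21:36069850-36069888, minus strand: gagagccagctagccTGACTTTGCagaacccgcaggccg

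The 7 tested genes with a match comprised 4 that were higher and 3 that were lower in shYES1 cells, with a median log2 fold change of 0.19. The 24 tested genes with a window and no match comprised 9 higher, 8 lower and 7 that did not pass (median -0.01). Genes with a match in a window and genes with none there went in each direction. Sequence beyond the windows was not searched, so a gene counted as having no match may hold the core elsewhere. A further 9 members had no window and were not searched. Whether the core bears on the direction of change was not tested. The GSTP1 match also holds TGACTCA, the sequence bound by AP-1 factors.

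Library depth, as reads counted on genes, ran between 11290889 and 18944148, and 14239 genes had enough reads to test. Levels of a gene are normalised read counts in CPM, which are counts scaled to library size after TMM adjustment. YES1 itself had 42.9, 43.3 and 46.02 CPM in the 3 shYES1 libraries, against 178, 181 and 179.9 CPM in the 3 shNT libraries, so every library matched its label. Markers of the labelled liver origin were near absent: of 9 hepatocyte genes only SERPINA1 (called lower in shYES1) and TF (called higher) passed the count filter, and HNF4A, TTR and CYP3A4 had no read in any library. Summed over the list, hepatocyte markers gave 3.35 to 3.86 CPM per kilobase of exon in shYES1 and 3.89 to 4.40 in shNT. All 6 mesenchymal markers were tested and went both ways: VIM and FN1 were called lower in shYES1, and COL1A1, COL1A2, CDH2 and THY1 higher. Their sum was 1682 to 1690 CPM per kilobase in shYES1 and 2085 to 2259 in shNT, but without FN1, left out after its values were seen, it was 762 to 769.8 in shYES1 and 643 to 672 in shNT. The part of these marker differences in the results that follow was not tested. Leukocyte markers other than CD14, and all erythroid markers, were too low to test. Summed leukocyte markers stood at 19.8 to 21.2 CPM per kilobase in shYES1 and 22.4 to 24.8 in shNT, and summed endothelial markers at 3.34 to 3.37 in shYES1 and 3.53 to 3.74 in shNT. Of the 3 endothelial markers tested PECAM1 was called lower, VWF higher and CDH5 neither. Scaling matters for small changes here: across all tested genes the calls were 4623 higher and 4676 lower with TMM, 5799 and 3762 with library size alone, and 3553 and 5717 when TMM used only genes whose 3' UTR lacks CCTTTC, a sequence described with its values at the end. The last 2 scalings shifted the median over all genes by 0.10 and -0.09 on the log2 scale.

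All 6 genes of the quinone, carbonyl, epoxide and heme group, which holds OSGIN1 beside the enzymes, were higher in shYES1 cells. The mitochondrial superoxide dismutase gene SOD2, the mitochondrial thioredoxin gene TXN2 and the thioredoxin reductase gene TXNRD1 were 2.28-fold to 2.86-fold lower. The other role groups held genes that rose and genes that fell, apart from the regulators: of the 6 peroxiredoxin genes 4 were lower and 2 higher. NFE2L2 and KEAP1 were slightly higher, and BACH1 did not pass the test. Of the 41 genes, 40 passed the count filter and GSTP1 did not.

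A gene was called where its Benjamini-Hochberg adjusted p in edgeR's quasi-likelihood test across all genes was under 0.05. Of the 40 tested members 32 (80%) were called, 18 (45%) higher and 14 (35%) lower in shYES1, whereas 65.3% of all 14239 tested genes were called, 32.5% higher and 32.8% lower. In 33 members (82.5%) the groups stood apart without overlap, against 67.9% of all tested genes. With library size alone the members gave 21 higher and 14 lower, and with the CCTTTC-free scaling 15 higher and 18 lower. The members are abundant genes, at a median percentile of 89.98 of the shNT level per kilobase. Against a minimum change of 1.2-fold, 22 members (55%) were called, 11 in each direction, against 36.4% of all genes. Called falls of at least 2-fold were seen in 3 members (7.5%) and in 6.22% of all genes, and called rises of at least 2-fold in 0 members and in 2.5% of all genes. The median log2 fold change was 0.02 over the tested members and -0.0047 over all tested genes, and the median size of a change was 0.35 and 0.30.

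**Figure D1:**
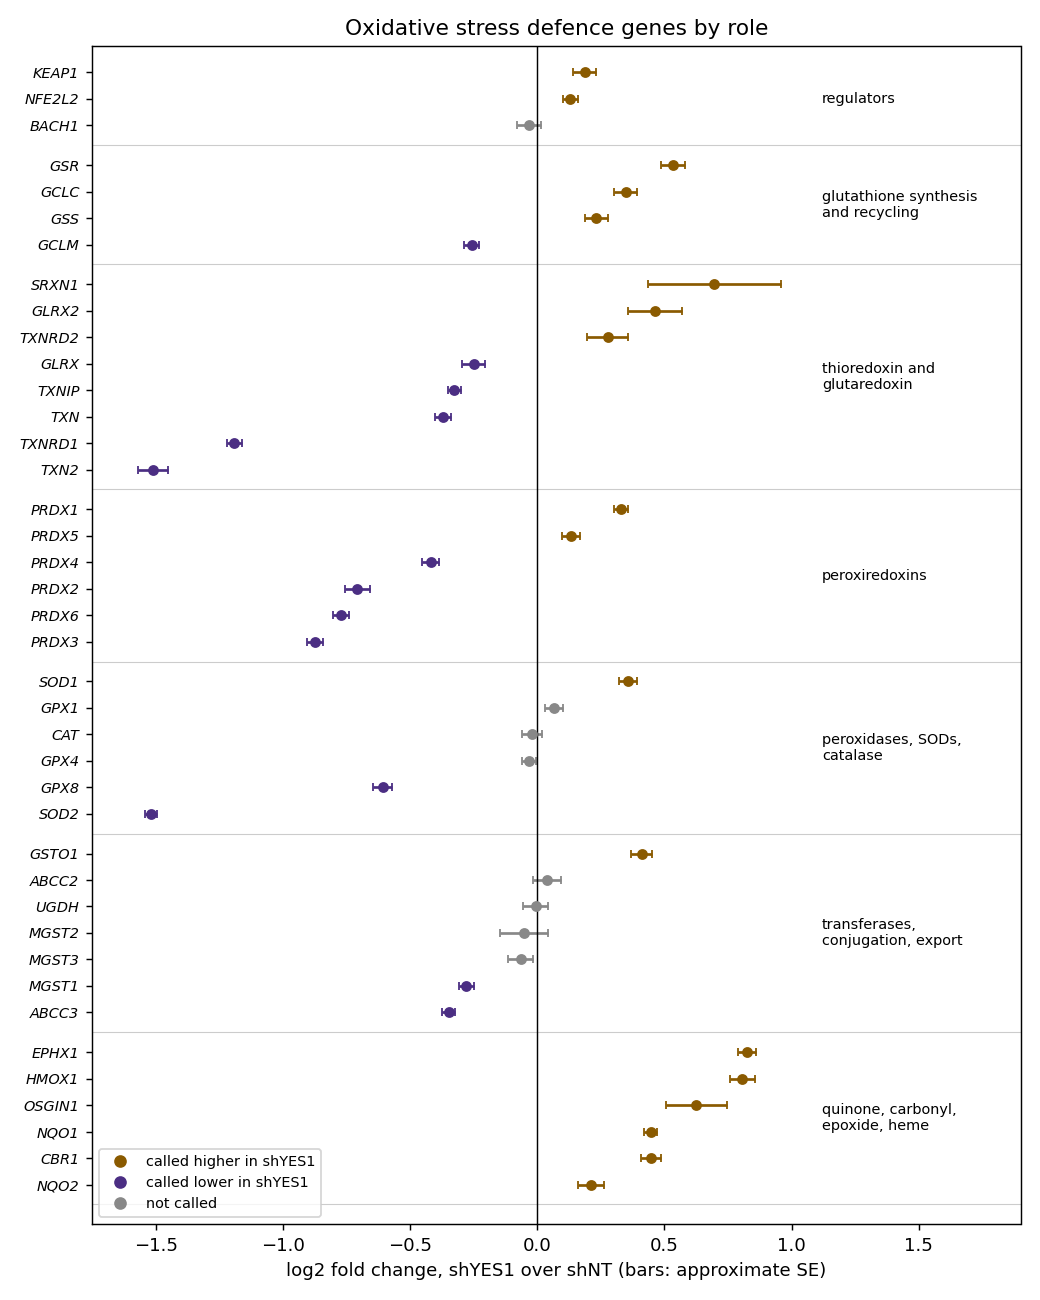
Log2 fold change, shYES1 over shNT, of the 40 tested members (x axis), grouped by role down the page, with bars for the approximate standard error; brown points were called higher, purple points lower, and grey points did not pass. The 6 genes of the quinone to heme group all lie right of 0, and SOD2, TXN2 and TXNRD1 lie left of -1.

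The regulators moved little. NFE2L2 (GRCh38 chromosome 2, 177227595 to 177392697, minus strand) had 235, 224 and 224 CPM in the shYES1 libraries, against 204, 205 and 214 CPM in the shNT libraries. The groups did not overlap, with a difference of 0.13 on the log2 scale (SE 0.0293, edgeR adjusted p = 1.28e-04). The call was lost under the CCTTTC-free scaling (0.04) and against the 1.2-fold minimum. KEAP1, the sensor that holds NRF2 low, had 73.9, 73.8 and 71.2 CPM in shYES1 and 58.3, 68.2 and 65.01 CPM in shNT. Its change of 0.19 (SE 0.0442, edgeR adjusted p = 2.64e-04) was lost in the same 2 settings (0.09 under the CCTTTC-free scaling). BACH1, the repressor at antioxidant response elements, had 47.9, 49.96 and 51.4 CPM in shYES1 and 53.6, 51.2 and 48.5 CPM in shNT, with overlapping groups (log2 fold change -0.03, edgeR adjusted p = 0.587). Exons of NFE2L2 and BACH1 overlap another listed gene on the same strand, so some of their reads may be uncounted. Per kilobase of exon, NFE2L2 RNA stood at 1.91 to 2.001 times KEAP1 RNA in shYES1 libraries and 1.89 to 2.21 times in shNT libraries, a ratio whose groups overlapped.

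Every member of the quinone, carbonyl, epoxide and heme group was called higher, and all 6 were also called higher under both other scalings. The group was drawn up with earlier results of these data known. Aldo-keto reductase genes, placed in another list given below, went both ways. NQO1 (chromosome 16, 69706996 to 69726951), the 2-electron quinone reductase, had 507, 514 and 488 CPM in shYES1 libraries, against 366, 369 and 370.4 CPM in shNT libraries (log2 fold change 0.45, SE 0.0256, edgeR adjusted p = 2.08e-20). HMOX1 (chromosome 22, 35380361 to 35394214), heme oxygenase 1, which BACH1 represses, had 63.6, 61.3 and 61.6 CPM in shYES1 and 36.7, 34.2 and 35.8 CPM in shNT (0.81, SE 0.0479). EPHX1 (chromosome 1, 225810092 to 225845563), the microsomal epoxide hydrolase, had 174, 161 and 165 CPM in shYES1 and 97.4, 94.8 and 91.4 CPM in shNT (0.82, SE 0.0348). In these 3 genes every shYES1 library lay well above every shNT library, and EPHX1 showed the largest rise among the 40 members, at 1.77-fold. The carbonyl reductase gene CBR1 had 101, 103 and 102 CPM in shYES1 and 75.4, 69.6 and 78.95 CPM in shNT (0.45). OSGIN1, a low-abundance gene induced by oxidative stress, had 8.77, 8.55 and 9.35 CPM in shYES1 and 4.77, 5.60 and 6.78 CPM in shNT (0.63). The smallest change was that of the second quinone reductase, NQO2, at 48.02 ± 2.35 CPM in shYES1 and 41.2 ± 2.24 CPM in shNT (0.21), which the 1.2-fold test did not call. Exons of OSGIN1 and NQO2 overlap another listed gene on the same strand. Summed per kilobase over the 6 genes, the level was 289 to 299.9 CPM per kilobase in shYES1 and 199 to 203 in shNT.

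**Figure D2:**
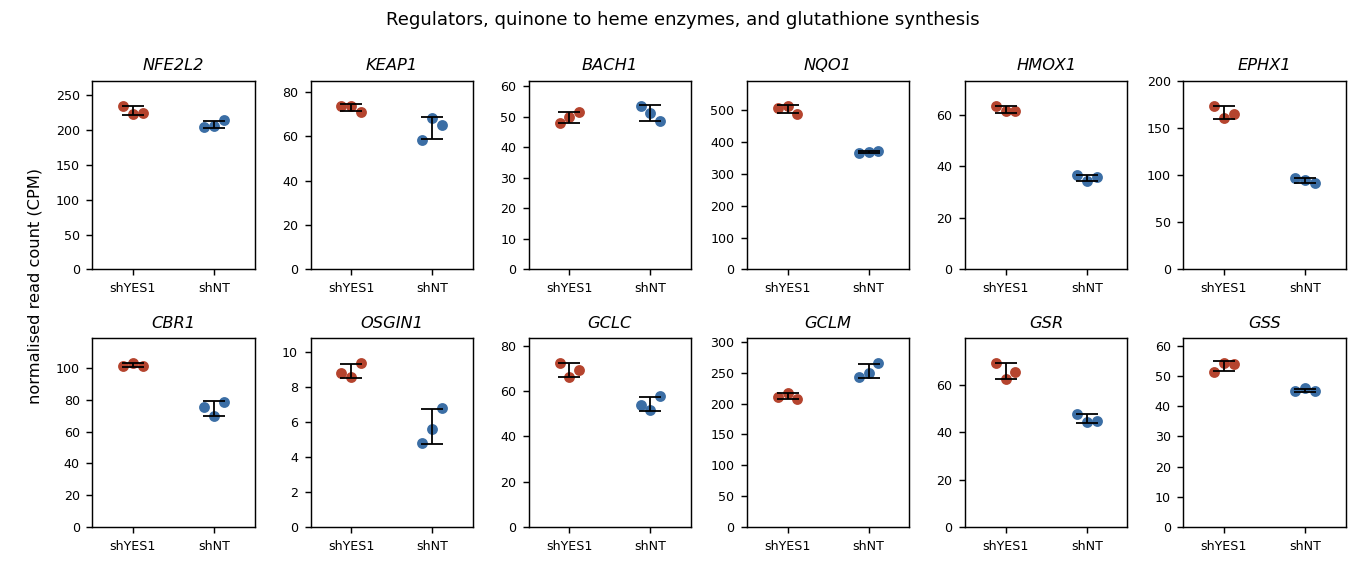
Normalised read count (CPM, y axes from 0) in each shYES1 library (red) and shNT library (blue) for the regulators, 5 genes of the quinone to heme group and the 4 glutathione genes. Black bars span the mean ± SD (n = 3). NQO1, HMOX1, EPHX1, CBR1, OSGIN1, GCLC, GSR and GSS are higher in all shYES1 libraries, whereas GCLM is lower and BACH1 overlaps.

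Glutathione genes were higher apart from GCLM. Glutathione is built by glutamate-cysteine ligase, whose catalytic subunit is encoded by GCLC and whose modifier subunit, which raises the enzyme's efficiency, by GCLM. GCLC had 72.3, 65.95 and 69.1 CPM in shYES1 libraries, against 53.8, 51.6 and 57.6 CPM in shNT libraries (log2 fold change 0.35, SE 0.0452, edgeR adjusted p = 4.01e-09). GCLM (chromosome 1, 93885205 to 93909456) had 211, 217 and 208 CPM in shYES1 and 243, 249 and 266 CPM in shNT (-0.26, SE 0.0303), a fall that the 1.2-fold test did not call. The 2 subunits thus went in opposite directions: per kilobase, GCLM stood at 4.66, 5.25 and 4.80 times GCLC in shYES1 and at 7.21, 7.70 and 7.37 times in shNT, with no overlap (exact two-sided permutation p = 0.1, the smallest that 3 against 3 libraries allow). GSR, glutathione reductase, which returns oxidised glutathione to its working form, had 69.3, 62.6 and 65.5 CPM in shYES1 and 47.9, 44.5 and 44.8 CPM in shNT (0.53). GSS, which completes glutathione by adding glycine, had 51.4, 54.3 and 54.1 CPM in shYES1 and 45.0, 45.9 and 44.99 CPM in shNT (0.23), and also missed the 1.2-fold test. An exon of GCLC overlaps another annotated gene on the same strand.

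Thioredoxin is a small protein that reduces disulfides and is itself recharged by thioredoxin reductase, with separate forms in the cytosol and in mitochondria. The 2 compartments did not move as units. TXN2 (chromosome 22, 36467036 to 36482030), the mitochondrial thioredoxin, had 15.9, 16.0 and 16.3 CPM in shYES1 libraries, against 45.97, 45.5 and 46.3 CPM in shNT libraries (log2 fold change -1.51, SE 0.0591, edgeR adjusted p = 1.03e-26). TXN, the cytosolic form, had 210.4, 212 and 199 CPM in shYES1 and 264, 259 and 278 CPM in shNT (-0.37, SE 0.0301). Both fell, the mitochondrial gene further, and per kilobase TXN stood at 21.9 to 23.8 times TXN2 in shYES1 and 10.2 to 10.8 times in shNT. For the reductases the order was reversed. TXNRD1 (chromosome 12, 104215779 to 104350305), the cytosolic selenoprotein reductase and a textbook NRF2 target, had 152, 156 and 154 CPM in shYES1 and 348, 359 and 345 CPM in shNT (-1.19, SE 0.0283, edgeR adjusted p = 2.68e-35). TXNRD2, the mitochondrial reductase, had 16.9, 17.7 and 16.5 CPM in shYES1 and 12.8, 14.8 and 14.3 CPM in shNT (0.28, SE 0.0795), a rise that the 1.2-fold test did not call. The ratio of TXNRD1 to TXNRD2 per kilobase was 11.0 to 11.6 in shYES1 and 30.2 to 33.8 in shNT.

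The remaining thioredoxin and glutaredoxin genes changed less. TXNIP, the protein that binds and blocks thioredoxin, had 564, 559 and 541 CPM in shYES1, against 686, 721 and 680.3 CPM in shNT (log2 fold change -0.33), and its ratio to TXN did not separate the groups. The glutaredoxin gene GLRX, cytosolic, had 56.3, 58.0 and 57.9 CPM in shYES1 and 62.9, 71.9 and 69.3 CPM in shNT (-0.25), and the 1.2-fold test did not call it. GLRX2, with a mitochondrial form, had 10.1, 11.04 and 9.50 CPM in shYES1 and 7.03, 8.17 and 6.84 CPM in shNT (0.46). The GLRX to GLRX2 ratio per kilobase was accordingly 5.02 to 5.81 in shYES1 and 8.39 to 9.67 in shNT, without overlap. SRXN1, sulfiredoxin, which repairs overoxidised peroxiredoxins, was scarce, at 1.77, 1.198 and 2.503 CPM in shYES1 and 0.970, 1.21 and 1.33 CPM in shNT, and its groups overlapped. It differed by 0.70 on the log2 scale (SE 0.262, edgeR adjusted p = 0.0183), and the call was lost with DESeq2, against 1.2-fold, without shYES1 library 3 (0.37) and without shNT library 1. An exon of SRXN1 overlaps another annotated gene on the same strand.

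**Figure D3:**
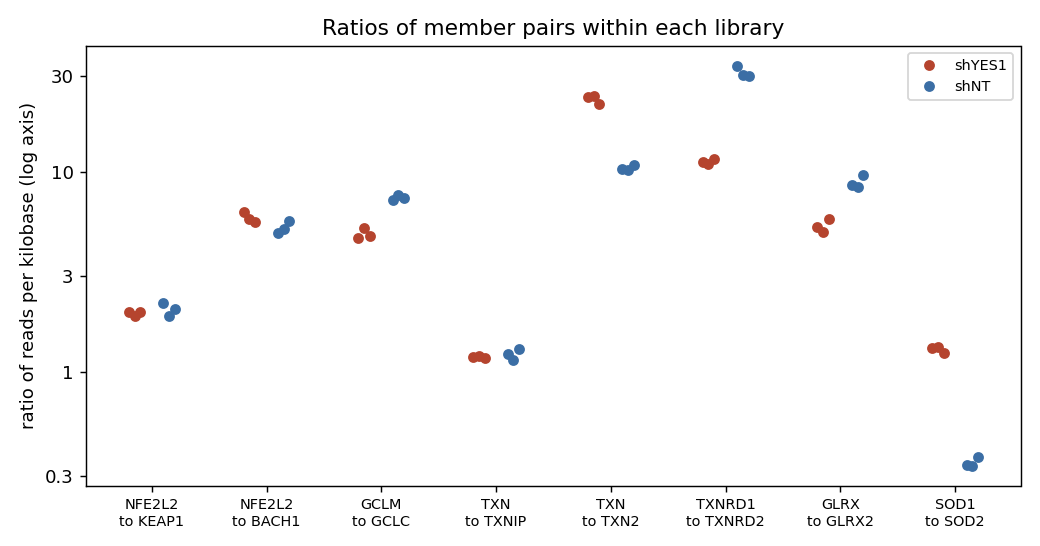
Ratio of the reads per kilobase of 2 members within each library (log y axis) for 8 pairs, with shYES1 libraries (red) left of shNT libraries (blue). GCLM to GCLC, TXNRD1 to TXNRD2 and GLRX to GLRX2 are lower, and TXN to TXN2 and SOD1 to SOD2 higher, in every shYES1 library; the other 3 ratios overlap.

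A ratio inside a library does not depend on how libraries are scaled. Of the 8 pairs examined, 5 separated the groups (each exact two-sided permutation p = 0.1, adjusted p = 0.16 over the 8 pairs) and 3 overlapped. Separation was common in these data: the groups did not overlap in 67.9% of all tested single genes. No such share was computed for pairs of genes. With 3 libraries against 3 no pair can reach a p under 0.1.

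Superoxide dismutases turn superoxide into hydrogen peroxide, SOD1 mainly in the cytosol and SOD2 in the mitochondrial matrix. SOD2 (chromosome 6, 159669057 to 159745186, minus strand) was the most abundant member by reads and showed the largest fall, with TXN2 close behind. It had 974, 969 and 979 CPM in the shYES1 libraries, against 2764, 2843 and 2759.6 CPM in the shNT libraries (log2 fold change -1.52, SE 0.0237, edgeR adjusted p = 1.23e-42). SOD1 had 157, 158 and 149 CPM in shYES1 and 116, 118 and 127 CPM in shNT (0.36, SE 0.0345). The ratio between the isozymes shifted: per kilobase SOD1 stood at 1.32, 1.33 and 1.24 times SOD2 in shYES1 and at 0.344, 0.339 and 0.375 times SOD2 in shNT, a 3.69-fold difference between the groups. The shift does not depend on gene length, but the ratio itself does, since the summed exons of SOD2 span 16493 bases and those of SOD1 2019. By reads SOD2 stayed above SOD1 in every library. Catalase and the main glutathione peroxidases, which remove the peroxide, did not pass the test. CAT had 71.4 ± 0.479 CPM in shYES1 and 72.4 ± 1.45 CPM in shNT (-0.02), the selenoprotein peroxidase gene GPX1 94.4 ± 2.15 CPM in shYES1 and 90.04 ± 0.882 CPM in shNT (0.07), and GPX4, which reduces lipid hydroperoxides and guards against ferroptosis, 273 ± 0.739 CPM in shYES1 and 279.6 ± 4.22 CPM in shNT (-0.03). The groups overlapped for CAT but not for GPX1 and GPX4. With library size alone GPX1 was called higher at 0.16 and GPX4 turned to a called rise of 0.06, and with the CCTTTC-free scaling CAT and GPX4 were called lower at -0.11 and -0.13. GPX8, a peroxidase of the endoplasmic reticulum, had 68.2, 67.2 and 67.3 CPM in shYES1 and 101, 103 and 104 CPM in shNT (-0.61, SE 0.0370).

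Peroxiredoxins reduce peroxides with a reactive cysteine that thioredoxin recharges, and all 6 human forms were measured. PRDX3 (chromosome 10, 119167703 to 119178833), the mitochondrial form, had 106, 106 and 107 CPM in shYES1 libraries, against 192, 200.01 and 194 CPM in shNT libraries (log2 fold change -0.87, SE 0.0315, edgeR adjusted p = 4.30e-28). PRDX6, which uses glutathione rather than thioredoxin, had 128, 132 and 125 CPM in shYES1 and 210.5, 222 and 222 CPM in shNT (-0.77, SE 0.0315). PRDX2, cytosolic, had 36.1, 34.3 and 34.3 CPM in shYES1 and 55.3, 56.5 and 58.8 CPM in shNT (-0.71, SE 0.0490). In all 3 the shYES1 libraries were tightly grouped below the shNT libraries. PRDX4, of the endoplasmic reticulum, had 104 ± 3.76 CPM in shYES1 and 139 ± 3.03 CPM in shNT (-0.42). PRDX1, the close cytosolic relative of PRDX2, went the other way, at 440.5, 464 and 446 CPM in shYES1 and 348, 365 and 361 CPM in shNT (0.33, SE 0.0264). PRDX5 had 113, 106 and 111 CPM in shYES1 and 96.1, 102 and 103 CPM in shNT (0.13), a rise not called under the CCTTTC-free scaling (0.04) or against 1.2-fold. Per kilobase PRDX1 was the most abundant peroxiredoxin in both groups, at 295.9 CPM per kilobase in shYES1 and 235 in shNT, and PRDX2 the least, at 16.7 and 27.2. The summed peroxiredoxin level overlapped between groups, at 573 to 580.1 CPM per kilobase in shYES1 and 579 to 607 in shNT. Without PRDX1, left out after its values were seen, the sum was 275 to 283 in shYES1 and 350 to 369 in shNT. Reads that map to several places are not counted, and release 29 of GENCODE names pseudogenes after TXN, GLRX, PRDX1, PRDX2, PRDX3, PRDX4, GPX1, SOD1, SOD2 and GSTP1, so the levels of these 10 genes are uncertain.

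**Figure D4:**
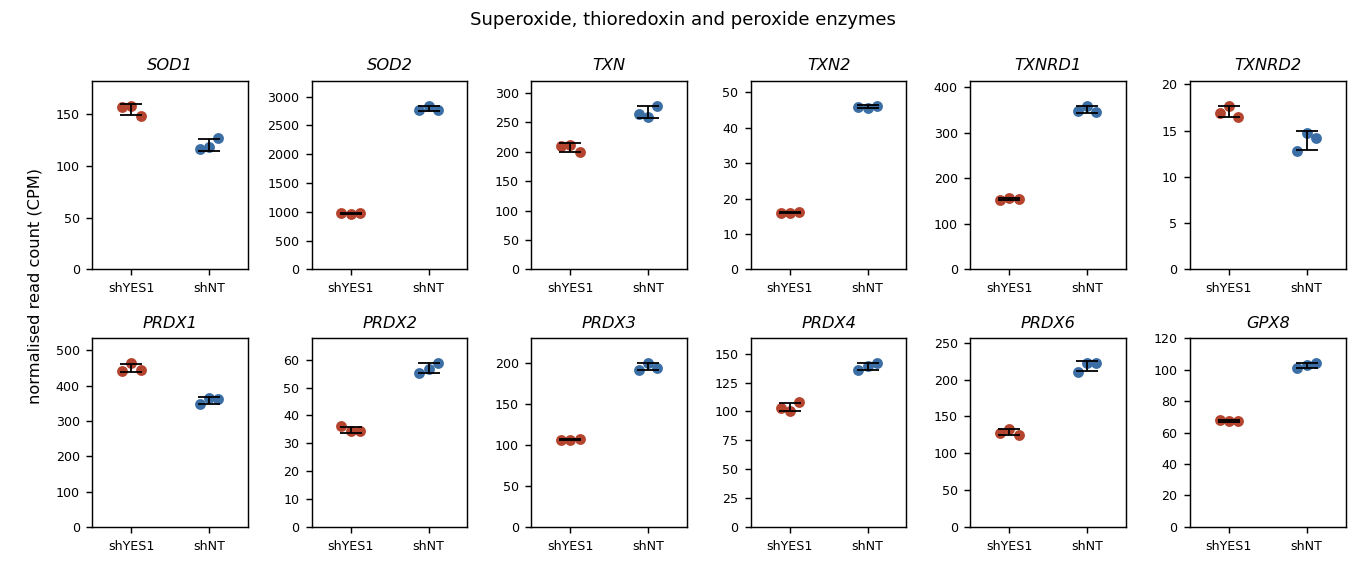
Normalised read count (CPM, y axes from 0) in each shYES1 library (red) and shNT library (blue) for 12 superoxide, thioredoxin and peroxide genes; black bars span the mean ± SD (n = 3). SOD1, TXNRD2 and PRDX1 are higher in all shYES1 libraries, and the other 9 genes are lower in all of them.

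Set out by compartment, the 7 cytosolic genes TXN, TXNRD1, GLRX, SOD1, PRDX1, PRDX2 and PRDX6 gave 2 rises and 5 falls (median -0.37), and the 5 mitochondrial genes TXN2, TXNRD2, GLRX2, SOD2 and PRDX3 gave 2 rises and 3 falls (median -0.87). Both genes of the endoplasmic reticulum, PRDX4 and GPX8, fell. The cytosolic and the mitochondrial genes each went both ways, and no test of the difference between them was made. PRDX5, which also has a mitochondrial form and rose (0.13), was placed in none of these lists. The medians therefore depend on which genes were placed. Among the 4 selenoproteins GPX1, GPX4, TXNRD1 and TXNRD2 there were 1 rise, 1 fall and 2 that did not pass.

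Of the 7 tested conjugation and export genes 1 rose, 2 fell and 4 did not pass. GSTP1 (chromosome 11, 67583595 to 67586656), the pi-class glutathione transferase that is often silenced in hepatocellular carcinoma, had 1, 0 and 0 reads in the shYES1 libraries, against 0, 0 and 1 read in the shNT libraries, and was too low to test. GSTO1, an omega-class transferase, had 87.1, 91.6 and 95.01 CPM in shYES1 and 67.8, 72.4 and 66.3 CPM in shNT (log2 fold change 0.41, SE 0.0409, edgeR adjusted p = 2.75e-12). ABCC3 (chromosome 17, 50634777 to 50692252), an exporter of conjugates at the basolateral membrane, had 375, 367 and 366 CPM in shYES1 and 486, 467 and 458 CPM in shNT (-0.35, SE 0.0260). Among the membrane-bound transferases MGST1 was the most abundant and the only one called, at 197, 196 and 196 CPM in shYES1 and 235, 231 and 247 CPM in shNT (-0.28), a fall that missed the 1.2-fold test. MGST2 at 10.6 ± 0.285 CPM in shYES1 and 10.99 ± 0.878 CPM in shNT (-0.05) and MGST3 at 47.1 ± 2.77 CPM in shYES1 and 48.9 ± 1.21 CPM in shNT (-0.07) did not pass, and their groups overlapped. Nor did UGDH, which makes the donor for glucuronidation, at 44.8 ± 0.878 CPM in shYES1 and 45.1 ± 1.497 CPM in shNT (-0.01), or ABCC2, the apical conjugate exporter, at 37.8 ± 2.62 CPM in shYES1 and 36.5 ± 1.56 CPM in shNT (0.04). MGST3 was called lower under the CCTTTC-free scaling (-0.16) and ABCC2 higher with library size alone (0.14).

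**Figure D5:**
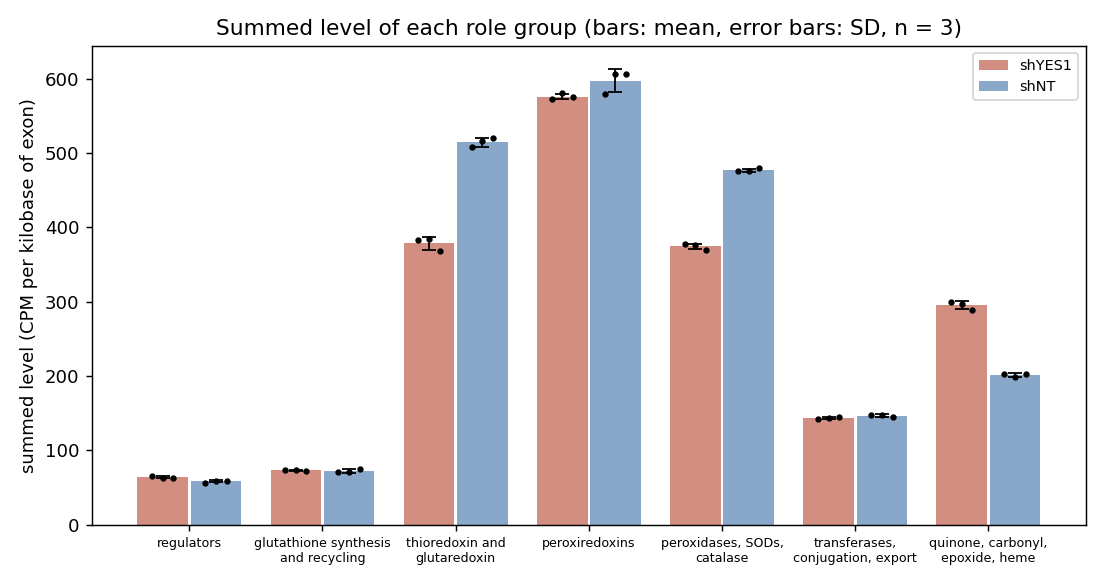
Summed level of each role group in CPM per kilobase of exon (y axis from 0), as the mean of shYES1 (red) and shNT (blue) with SD and the 3 libraries as points. The thioredoxin group is lower in shYES1, at 379 ± 9.03 against 514 ± 6.17, as is the peroxidase and dismutase group, at 374 ± 3.80 against 477 ± 2.13 (315 against 308 without SOD2), and the quinone to heme group is higher, at 295 ± 5.37 against 201 ± 2.22.

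Levels per kilobase differed widely between members. In shYES1 cells PRDX1 (295.9 CPM per kilobase), TXN (182), NQO1 (155) and TXNIP (153) stood highest, and in shNT cells PRDX1 (235), TXN (234), TXNIP (192) and SOD2 (169). SRXN1 was the lowest tested member in both groups, at 0.68 in shYES1 and 0.43 in shNT. These levels use the summed length of all annotated exons, which understates genes with long unused exons. Summed over the 41 genes the level was 1883 to 1918 CPM per kilobase in shYES1 and 2039 to 2087 in shNT. Abundant genes weigh most in this sum: SOD2 alone stood at 59.04 in shYES1 and 169 in shNT. By count, 18 members were called higher and 14 lower. In bulk RNA, fewer cells that express a gene and less RNA per cell cannot be told apart.

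A further 100 genes of the pathway were examined as 7 lists. Of these, 84 were tested, 36 were higher, 27 lower and 21 did not pass, so that 42.9% of the tested genes were higher and 32.1% lower, against 32.5% and 32.8% of all tested genes, and the share lower was thus near that of all genes (median log2 fold change 0.07). With library size alone these lists gave 42 higher and 24 lower, and with the CCTTTC-free scaling 26 and 34. Other NRF2 targets gave 14 higher, 5 lower and 3 that did not pass of 22 tested (median 0.34). The aldo-keto reductase AKR1B10 had 61.2 ± 2.36 CPM in shYES1 and 19.8 ± 1.33 CPM in shNT (log2 fold change 1.62). AKR1C1 had 205 ± 3.13 CPM in shYES1 and 75.02 ± 1.198 CPM in shNT (1.45), although reads shared among the near-identical AKR1C genes are uncertain. The list's other aldo-keto reductase genes are named after their values were seen. AKR1B1 was called lower, at 526 ± 12.0 CPM in shYES1 and 784 ± 14.0 CPM in shNT (-0.58), and AKR1C2 (1.18) and AKR1C3 (0.60) higher. The largest falls of the list were those of FTH1, the ferritin heavy chain, at 5584 ± 109 CPM in shYES1 and 12132 ± 251 CPM in shNT (-1.12), and of ME1, a source of NADPH, at 123 ± 1.89 CPM in shYES1 and 204 ± 3.64 CPM in shNT (-0.74). Pseudogenes are named after FTH1 (25), AKR1B1 (7) and AKR1B10 (2), among others of these lists, so these levels are uncertain too. Of the NRF2 partners and turnover genes 7 of 12 were higher and 3 lower (median 0.11), with MAFK, a small MAF partner, at 69.98 ± 2.74 CPM in shYES1 and 40.5 ± 1.58 CPM in shNT (0.79) and CUL3, the ligase scaffold that works with KEAP1, at 243 ± 5.36 CPM in shYES1 and 153 ± 3.08 CPM in shNT (0.66). BTRC, an adaptor of another ligase that turns over NRF2, was called lower, at 18.7 ± 2.22 CPM in shYES1 and 28.97 ± 1.152 CPM in shNT (-0.60), and so was MAFF, another small MAF (-0.47). NFE2L3, a relative of NFE2L2 named here after its values were seen, was also called higher (0.07), but was -0.03 under the CCTTTC-free scaling and lost its call in 5 of the 6 fits that left out a library.

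The remaining lists were mixed. Other glutathione transferases and peroxidases gave 4 higher and 3 lower of 10 tested, with GSTA4 (0.69) and GSTZ1 (0.53) up and the secreted peroxidase gene GPX3 (-0.47) and GSTK1 (-0.38) down. Genes of glutathione supply and breakdown gave 1 higher, 3 lower and 6 that did not pass of 10: the glutathione-degrading CHAC1 rose on 58 reads in shYES1 and 29 in shNT (0.79), and GGT5, on 14 reads in shYES1 and 34 in shNT (-1.46), and LANCL1 (-0.53) fell. The CHAC1 call was lost with DESeq2 and in 4 of the 6 fits that left out a library, and the GGT5 call without shYES1 library 3. Other thiol and methionine repair genes gave 8 higher and 6 lower of 16, with the methionine sulfoxide reductase genes MSRB3 (0.56) and MSRB1 (0.40) up and SESN3 (-1.02) and TMX1 (-0.68) down. SESN3 rests on 26 reads in shYES1 and 46 in shNT, its groups overlapped, and its call was lost with DESeq2 and limma-voom and in 4 of the 6 fits that left out a library. In selenoprotein synthesis 1 of 7 was higher and 4 lower (median -0.23), among them SECISBP2, which binds the selenocysteine insertion element, at 39.6 ± 0.428 CPM in shYES1 and 54.5 ± 1.124 CPM in shNT (-0.46), and SEPHS1 (-0.32); TRNAU1AP rose (0.21), with overlapping groups. Of 15 oxidant-producing enzymes 7 were tested, and 1 was higher, MAOA (0.59, on 87 reads in shYES1 and 50 in shNT, a call lost with DESeq2 and in 4 of those 6 fits), and 3 lower. ERO1A, which makes hydrogen peroxide while oxidising proteins in the endoplasmic reticulum, had 118 ± 1.99 CPM in shYES1 and 289 ± 6.27 CPM in shNT (-1.29), and AOX1, aldehyde oxidase, 20.7 ± 0.672 CPM in shYES1 and 43.7 ± 1.11 CPM in shNT (-1.08). NADPH oxidase genes NOX1, NOX4 and CYBB had no read in any library.

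The 3' UTR of 14 tested members holds the sequence CCTTTC, and that of 26 does not. Of the 14, 6 were higher and 5 lower (median 0.05), and of the 26, 12 were higher and 9 lower (median -0.01). Of the 14239 tested genes, 5756 had the sequence (median -0.08, 43.6% called lower), 6164 had a 3' UTR without it (median 0.09, 25.9% called lower), and 2319 had no 3' UTR to search (median -0.13, 24.5% called lower). SOD2, TXN2 and TXNRD1 are among the 14, and so are PRDX1, GCLC and CBR1, which were higher. The sequence was chosen with earlier results of these data known, and its part in the members' values was not tested.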

How the data were processed

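RNA of 6 SNU-387 libraries (3 shYES1, 3 shNT) was measured by poly(A) sequencing with a strand-specific kit, per the labels' protocols. Raw read counts per gene were deposited by the authors, 1 file per library; CASAVA 1.8.2, Trimmomatic 0.35, STAR 2.5.1b and GRCh38 are named in the submitters' processing notes, and no annotation release is stated. The reverse-strand counts were used, 93.5% to 94.0% of stranded gene reads. The 4 entries that name no gene (19.8% to 20.3% of reads) were left out. Symbols came from the reference tables (57393 identifiers), with SOD2, exon lengths, 3' UTRs and coordinates from GENCODE release 29.

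Genes were kept by edgeR's filterByExpr (minimum count 10, total 15). edgeR 4.0.16 in R 4.3.3 fitted the quasi-likelihood model with TMM scaling (factors 0.965 to 1.04) and no covariate across all 14239 genes, with Benjamini-Hochberg adjustment over all of them and a threshold of 0.05. CPM, CPM per kilobase and log2 fold changes were computed from the deposited counts. Ratios of 2 members were tested by exact permutation over 20 splits. The test was also tried on simulated counts with known changes, with a common spread taken from the fit to these data. Few genes were changed there, equally often up and down, so it cannot speak to scaling in these data, where 65.3% of tested genes were called. Within a group, no 2 libraries agreed within sampling noise (chi-square per degree of freedom 1.15 to 2.20), the lowest being shYES1 libraries 2 and 3. The spread beyond that noise was small, with a common biological coefficient of variation of 2.1% and correlations of 0.994 to 0.996 within groups. Alternatives covered scaling, filters, DESeq2 1.42.0, limma-voom 3.58.1, a 1.2-fold minimum, a replicate block, unstranded counts and each library left out. All members were accounted for; library values were given for regulators and for up to 3 called rises and falls per role group, and for further members where they show a pair. In each pathway list the 2 largest called rises and falls were named. The members and lists were chosen with earlier results of these data known.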

Additional observations from a re-analysis of the deposited data

How the results depend on the processing

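Across the 16 alternatives 24 of the 40 tested members kept the same call, 22 of them called genes, among them SOD2, TXN2, TXNRD1, NQO1, HMOX1 and EPHX1. Against a 1.2-fold minimum 11 members were higher (18 in the fit as reported), as were 21 pathway genes (36), and 5185 genes were called in all (9299); the number tested did not change. The median log2 fold change of the members, 0.02, depended on scaling: it was 0.11 with library size alone and -0.0758 with TMM on genes without CCTTTC, against shifts of 0.10 and -0.09 in the median of all genes, and -0.00343 to 0.0361 when 1 library was left out, negative without shNT replicate 3. Members called higher and lower were 21 and 14 with library size alone, and 15 and 18 with the CCTTTC-free scaling. GPX4 turned to 0.0634 with library size alone, and NFE2L3 to -0.0272 with the CCTTTC-free scaling; the cause was not tested. The log2 ratio of TXN to TXNIP, -0.04, ranged from -0.0873 to 0.00618 when 1 library was left out and was above 0 without shNT replicate 3. With the replicate block 18 members were higher and 14 lower and 9297 genes were called, and no member's call changed. Same-numbered libraries correlated at 0.0116, 0.0252 and 0.0122 in their deviations from the group means, so no shared deviation was seen. Whether they were prepared together cannot be told from this, and the labels do not say. DESeq2 called 7953 genes, 3946 higher and 4007 lower, and it called 31 pathway genes higher. With 3 libraries a group, low genes such as SRXN1 have wide errors and GSTP1 was too low to test.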
